A study of Homo sapiens with 3 samples.

Results

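The respiratory chain subunits encoded in the nuclear genome were followed in 3 lines of PC3-Luc cells, a human prostate adenocarcinoma line. Members were the protein-coding genes of the deposited table whose symbols begin with NDUFA, NDUFB, NDUFC, NDUFS or NDUFV and a digit, with UQCR, with COX and a digit of 4 to 8, or with ATP5, together with SDHA, SDHB, SDHC and SDHD. The rule uses names and no measured value, and it found 84 of 21726 listed genes. The lines were sh718 and sh720, each with a short hairpin against CTHRC1, a secreted glycoprotein linked to cell migration, and a line with a control hairpin. All 3 lines share the PC3 background and a luciferase gene from a pMSCV-luc vector, so the control carries these too. The labels do not tell whether a line is 1 clone or a pool. Each line had 3 libraries, made from total RNA of cells kept for 24 h in 6-well plates. The records list each line as 1 sample with libraries numbered 1 to 3, and the count table gives each library its own column.

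The respiratory chain is a set of protein complexes in the inner mitochondrial membrane. Complex I takes electrons from NADH and complex II takes them from succinate, as a step of the citric acid cycle. Both pass them to ubiquinone, from which complex III hands them to cytochrome c and complex IV to oxygen. Complexes I, III and IV pump protons, and complex V, the ATP synthase, lets them back to make ATP. Most subunits are made from nuclear genes and a few from mitochondrial DNA. Complex II is built from nuclear genes alone, and loss of its subunits is known from hereditary paraganglioma.

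Within a line, counts differed between libraries by more than sampling noise, with a chi-square per degree of freedom of 1.28 to 2.25 for each pair. In sh718, library 2 stood apart from libraries 1 and 3 (2.25 and 2.21, against 1.28 between those), and without it 9 members were higher and 17 lower than in control, against 12 and 19 with it. Library totals ran from 883663 to 1108960 counts, and transcripts of the mitochondrial genome held 12% to 16.4% of them. Summed counts of the target CTHRC1 were 5 in sh718, 47 in sh720 and 331 in control, so the target was lower in both lines labelled with a hairpin against it. The keratin genes KRT8, KRT18 and KRT19 and VIM were abundant. Of 11 markers of leukocytes, endothelium, fibroblasts and neuroendocrine cells, 5 were not analysed here, and those other than PECAM1 had 0 to 11 counts per line. The summed endothelial level, all of it PECAM1, was 46.6 to 51.4 CPM in sh718, 13.4 to 31.2 CPM in sh720 and 21.4 to 25.9 CPM in control, and its part in the results was not tested. In RNA from whole cultures, fewer cells with a transcript and less of it per cell cannot be told apart.

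Levels are given as CPM, counts relative to library size, with TMM scaling. Changes are on the log2 scale and carry a standard error (SE). Genes with an adjusted p under 0.05 in edgeR's quasi-likelihood test were called, and the test covered the 9556 genes that met a minimum of 60 counts in all. All adjusted p-values for genes come from this test unless DESeq2 is named. Of the 84 members 77 were tested. Under the minimum were NDUFA7 with 34 counts, ATP5MGL with 19, COX7B2 with 7, NDUFV2 with 4, NDUFA4L2 and COX8C with 2 each, and COX6B2 with 1. ATP5MGL, COX7B2, NDUFA4L2, COX8C and COX6B2 are copies or tissue-restricted isoforms of other members. The muscle or lung isoforms COX4I2, COX6A2 and COX7A1 were not analysed here. NDUFA7 and NDUFV2, in contrast, encode complex I subunits, and that of NDUFV2 is an iron-sulfur subunit that the complex needs in every tissue. Of their 75-base windows, the length of a read, 26.9% for NDUFA7 and 24.6% for NDUFV2 also occur in other annotated genes. NDUFB8, with 46% of its windows shared, had 772 counts, and why NDUFA7 and NDUFV2 had few was not tested.

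Subunit genes moved in both directions in sh718, and in sh720 most of those called fell. In sh718 12 members rose and 19 fell against control, where 9.56% of all tested genes rose and 10.8% fell. In sh720 1 member rose and 8 fell, where 3.43% of all tested genes rose and 3.42% fell. As shares of the 77 tested members, 40.3% were called in sh718 and 11.7% in sh720, against 20.4% and 6.85% of all tested genes. The members are abundant, with a median of 1807 counts over all libraries against 292.5 for all tested genes, and abundant genes are easier to call. Among genes with at least 1000 counts, 44.6% of 56 members and 42.7% of all 1542 such genes were called in sh718, and 14.3% and 19.5% in sh720.

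DESeq2 called 8 members higher and 14 lower in sh718, beside 4.68% and 5.86% of all tested genes, and 1 higher and 5 lower in sh720, beside 1.38% and 1.74%. All sh718 libraries lay above all control libraries for 16 members and below them for 25, and did so for 16.3% and 17.1% of all tested genes. The sh720 libraries lay above control for 4 members and below it for 24, against 11.6% and 11.9% of all tested genes.

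The median change of the 77 members was -0.04 in sh718 and -0.10 in sh720, beside 0.00 for all tested genes in each. By sign alone, 43 of 77 members were below control in sh718 and 57 of 77 in sh720. The summed level of all members was 21483 to 22172 CPM in sh718, 20004 to 21584 CPM in sh720 and 21727 to 22769 CPM in control. The sh718 range overlapped that of control, and all sh720 libraries lay below it. The number of members higher in sh718 was 6 without control library 3. The 9 calls of sh720 were 5 without its library 3.

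**Figure D1:**
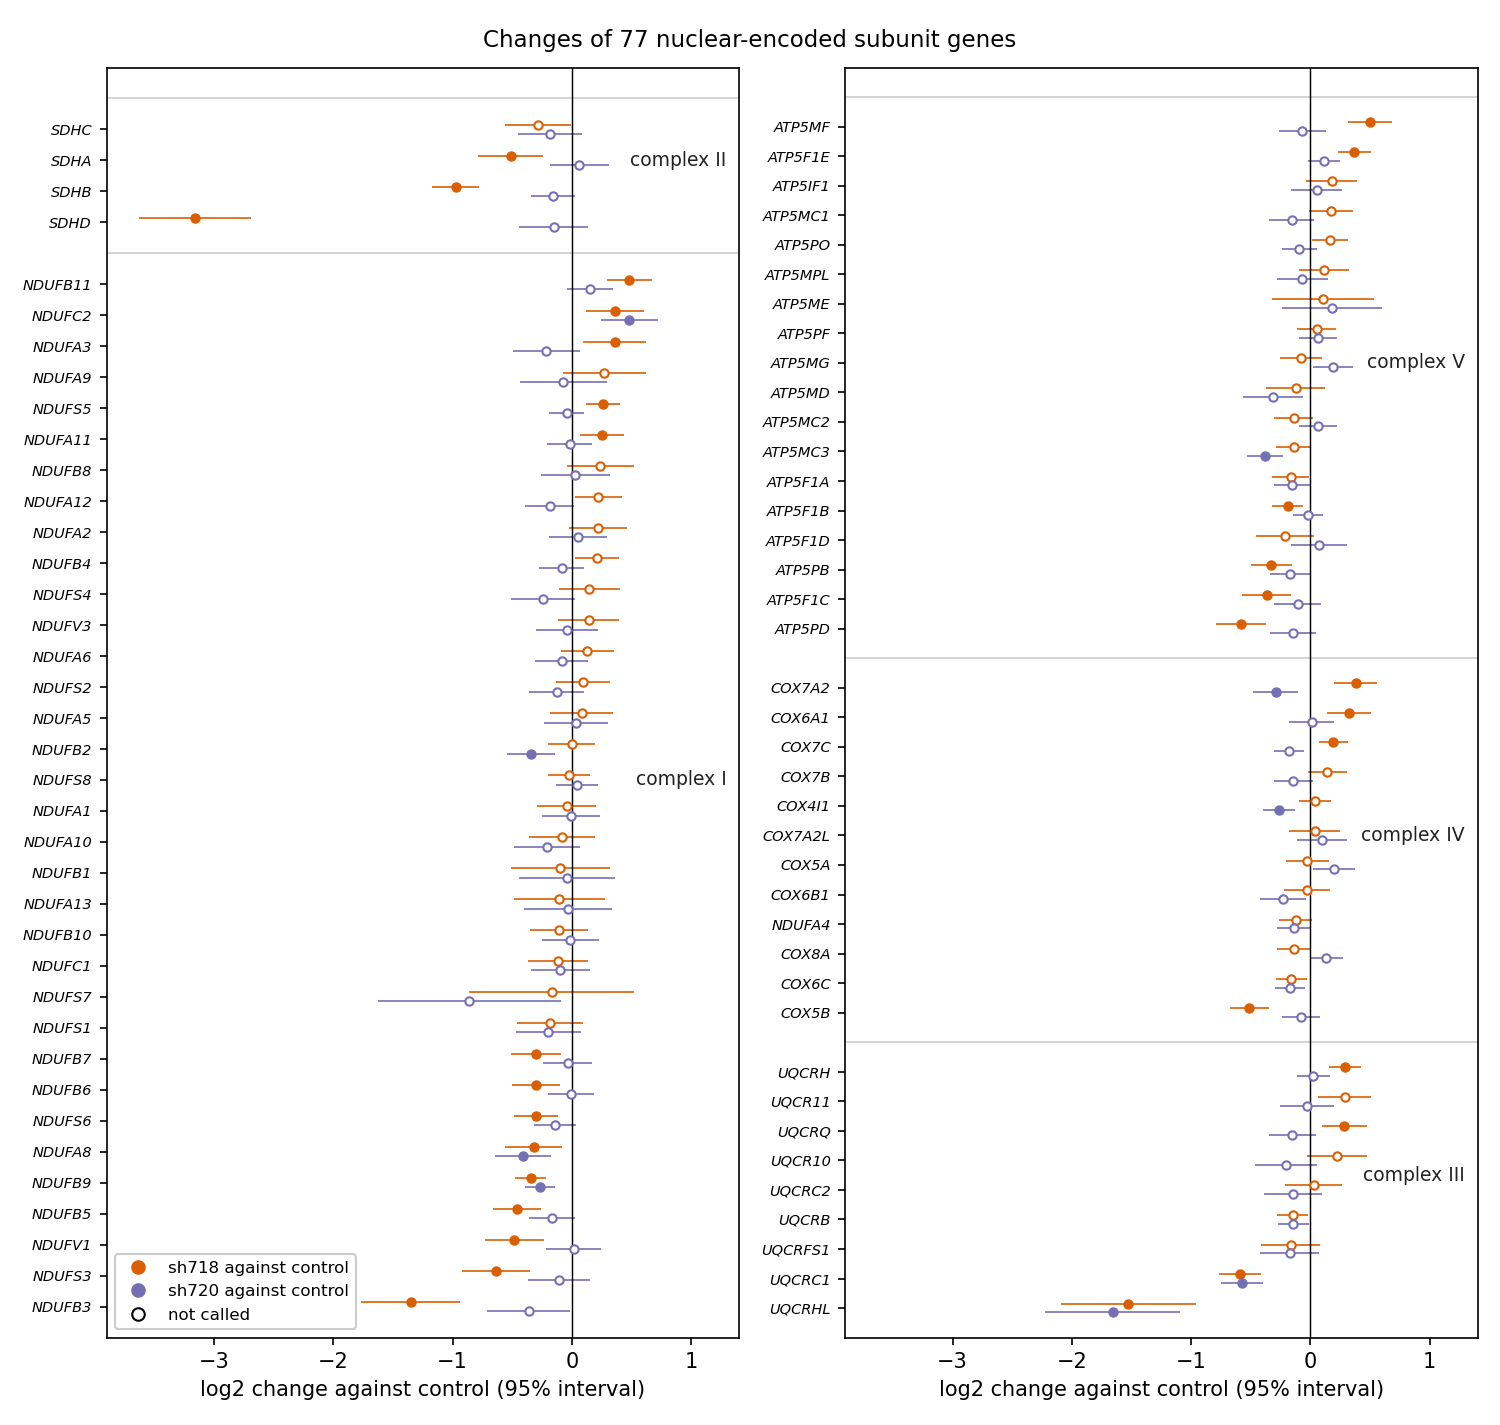
Log2 change against control of the 77 tested members by complex, with 95% intervals, for sh718 (orange) and sh720 (violet), and filled points for called genes. SDHD lies farthest below 0 in sh718, while its sh720 point sits at -0.15, and members of each other complex lie on both sides of 0 in sh718.

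Complex II held SDHD, the member with the largest change. Of its 4 subunit genes 3 fell in sh718, as did 10.8% of all tested genes. In sh720 edgeR called 0 of them, 0 had an unadjusted p under 0.05 and DESeq2 called 0. SDHA, the flavoprotein that oxidises succinate, and SDHB, the iron-sulfur protein that carries the electrons on, form the catalytic head. SDHC and SDHD anchor it in the membrane and hold the ubiquinone site.

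SDHD (ENSG00000204370, chromosome 11, 112086773 to 112120013, plus strand, GRCh38) had 10.6, 8.06 and 9.54 CPM in the sh718 libraries, 74, 83.2 and 70.8 CPM in sh720 and 64.2, 104 and 85.1 CPM in control. The sh718 values, which rest on 9, 8 and 9 counts, lay far below all others, and the sh720 and control values overlapped. In sh718 the log2 change was -3.16 (SE 0.24, adjusted p 7.5e-18), and in sh720 it was -0.15 (SE 0.14, adjusted p 0.636). With summed counts of 26 in sh718 and 241 in control, sh718 held 11.1% of the control level, with an exact 95% interval of 7.08% to 16.6%. From 225 counts, sh720 held 89.8% (74.6% to 108%). These intervals cover counting error only.

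SDHB (ENSG00000117118, chromosome 1, 17018722 to 17054170, minus strand) had 153, 161 and 162 CPM in sh718, 308, 286 and 247 CPM in sh720 and 292, 333 and 314 CPM in control. Its log2 change in sh718 was -0.97 (SE 0.10, adjusted p 2.55e-12), which left 50.9% of control (45.3% to 57.1%), and its change in sh720 was -0.16. SDHA (ENSG00000073578, chromosome 5, 218241 to 256700, plus strand) had 69.5, 85.6 and 75.2 CPM in sh718, 129, 112 and 104 CPM in sh720 and 111, 116 and 104 CPM in control, a change of -0.51 in sh718 (SE 0.14, adjusted p 0.0036). The sh718 libraries lay below all others for both genes. SDHC (ENSG00000143252, chromosome 1, 161314257 to 161375340, plus strand) did not pass the test, with 64.8, 89.7 and 82.7 CPM in sh718, 81.2, 93.6 and 81.4 CPM in sh720 and 100.2, 100.4 and 91.6 CPM in control. Its change in sh718 was -0.29 (95% interval -0.56 to -0.01, adjusted p 0.14).

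The direct comparison of the hairpin lines gave the same order. SDHD was lower in sh718 than in sh720, with a 95% interval of -3.48 to -2.53 for the log2 difference. That difference was -0.82 for SDHB and -0.58 for SDHA, and the adjusted p-values for SDHD, SDHB and SDHA were 1.05e-16, 7.76e-10 and 0.000651. The summed level of the complex II genes was 298 to 345 CPM in sh718, 503 to 593 CPM in sh720 and 568 to 653 CPM in control. The calls of SDHA, SDHB and SDHD in sh718 held under every alternative that was run, DESeq2 and the omission of each library included.

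**Figure D2:**
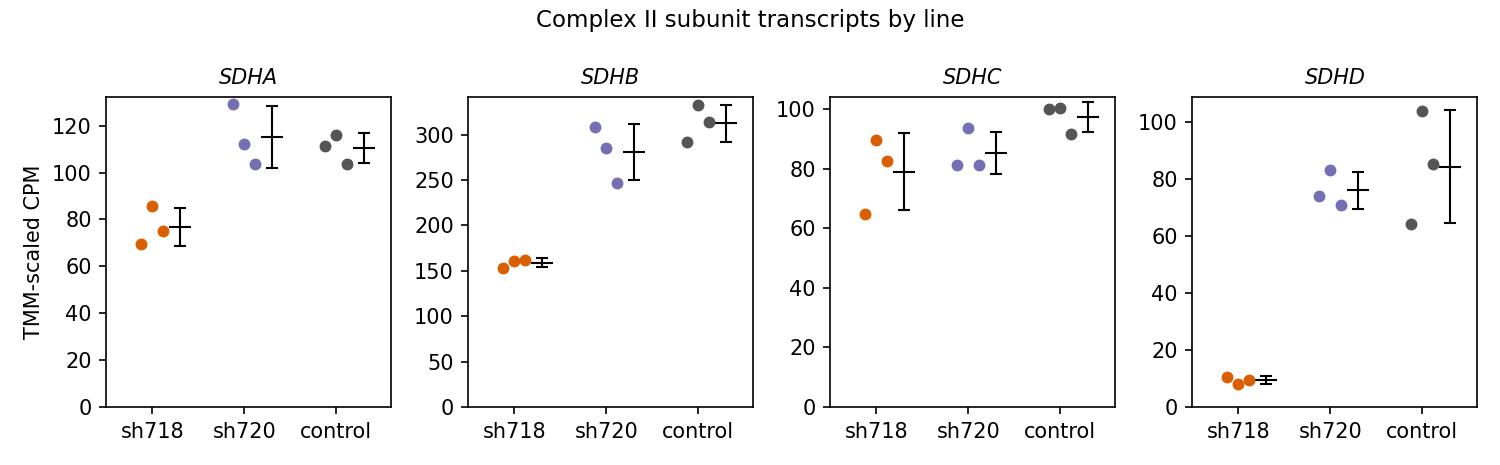
TMM-scaled CPM of the 4 complex II genes in each library (points), with mean and SD (bars), by line, each panel with its own axis from 0. The sh718 points of SDHD sit between 8.06 and 10.6 CPM, and those of SDHA and SDHB also lie below every sh720 and control point.

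Several genes beside SDHD on chromosome 11 also fell in sh718. Of the 20 nearest tested genes that are no members, 9 fell in sh718, as did 10.8% of all tested genes. In sh720 edgeR called 0, 1 had an unadjusted p under 0.05 and DESeq2 called 0. Their median change was -0.46 in sh718 and -0.05 in sh720. DLAT, which encodes a pyruvate dehydrogenase subunit, changed by -1.43 in sh718, the cytokine gene IL18 by -1.59 and the RNA-binding protein gene RBM7 by -1.33. The nearest gene of all, TIMM8B, which encodes a mitochondrial import chaperone, starts head to head with SDHD and overlaps it by 26 annotated bases. TIMM8B was not called, with -0.17 in sh718 (SE 0.14, adjusted p 0.441) and -0.09 in sh720. SDHD lay below all 20 of these neighbours in sh718. For SDHB the 20 neighbours had a median of 0.14 in sh718, and for SDHA, which lies near the chromosome end, the 11 available had a median of -0.64. Whether the change of SDHD is related to those of its neighbours was not tested.

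**Figure D3:**
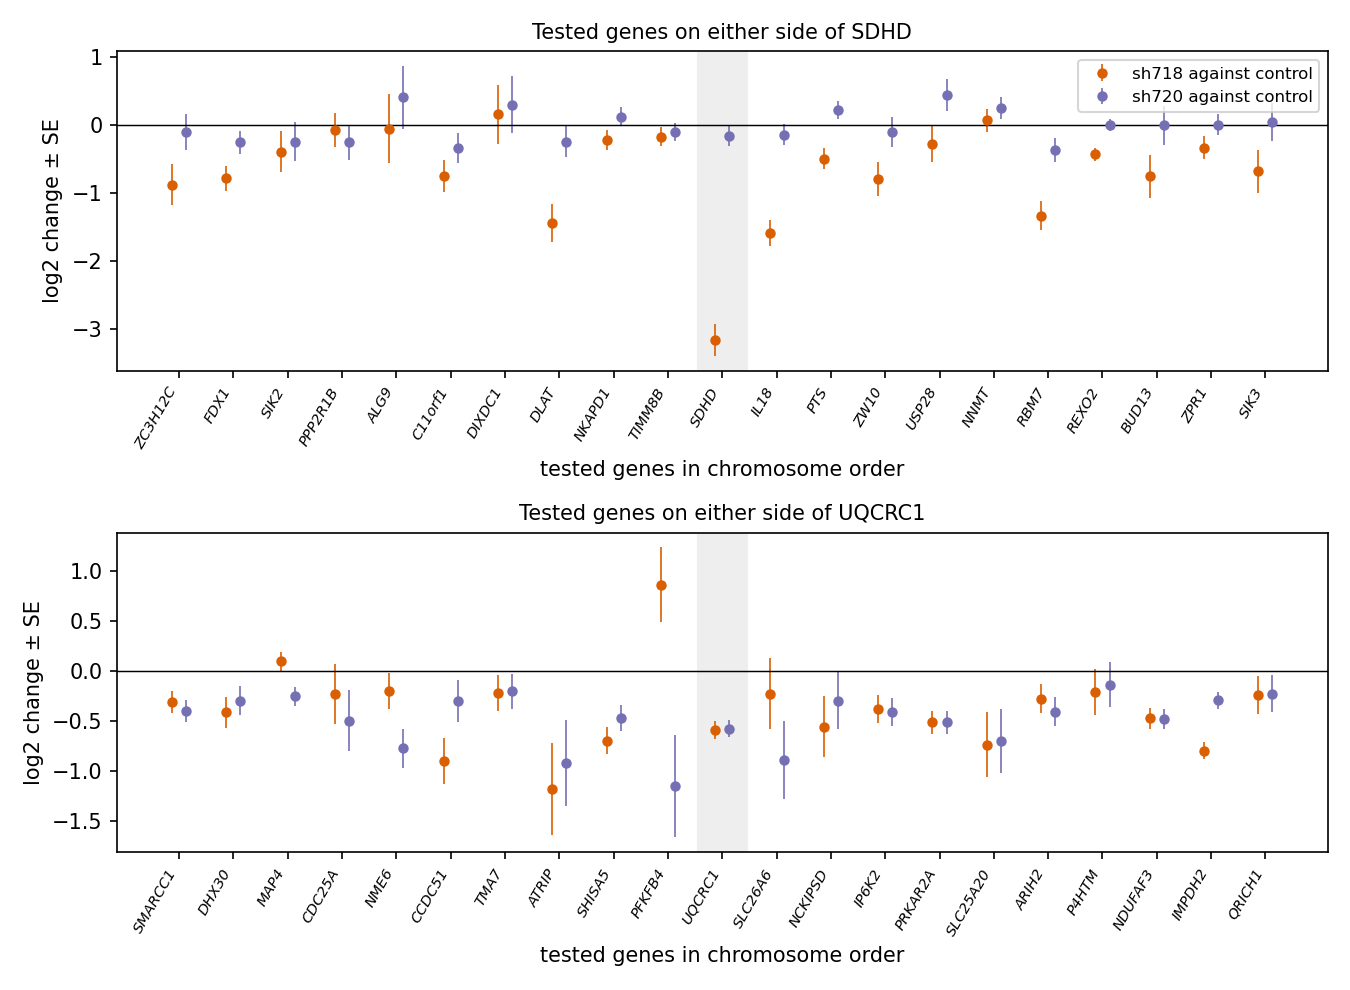
Log2 change against control with SE for the 10 tested non-member genes on each side of SDHD (top) and UQCRC1 (bottom) in chromosome order, for sh718 (orange) and sh720 (violet). Around SDHD most sh718 points lie below 0 and the sh720 points scatter about it, and around UQCRC1 the points of both lines lie mostly below 0.

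NRF1 and the ETS family protein GABP are transcription factors known for binding the promoters of many subunit genes. RefSeq promoter windows, the 250 bases before the annotated start in GRCh38.p14, were matched for 68 of 84 members, 63 of them tested. Both strands were searched for an NRF1 motif (GCGCA followed directly by its reverse complement TGCGC), an ETS motif (CCGGAAG) and a YY1 motif (ATGGCGGC). The NRF1 motif stood in 4.8% of the tested members' promoters, 2.7% of the promoters of all tested genes and 1.3% of all promoters. The ETS motif stood in 28.6%, 20.7% and 10.2% of these, and the YY1 motif in 3.2%, 2.7% and 1.6%. SDHD was 1 of 3 tested members with the NRF1 motif and also held the ETS motif. SDHB held the ETS motif, and the windows of SDHA, NDUFB3 and UQCRC1 held none of the 3. SDHC was among the members without a matched window and was not searched. Distances are to the RefSeq start, while the gene positions given above are from GENCODE. By those positions, the ETS motifs of SDHD and SDHB lie inside the genes, past their starts. The stretches below show these matches in the complex II genes, with the other members that hold the NRF1 motif for comparison, 30 bases each on the strand of the gene, with the motif in capitals.
SDHD, NRF1 motif 110 bases before the start, chr11:112086753-112086782, plus strand: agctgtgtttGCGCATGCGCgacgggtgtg
SDHD, ETS motif as its reverse complement 77 bases before the start, chr11:112086785-112086814, plus strand: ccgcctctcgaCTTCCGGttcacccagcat
SDHB, ETS motif 128 bases before the start, chr1:17054142-17054171, minus strand: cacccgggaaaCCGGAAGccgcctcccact
NDUFB4, NRF1 motif 159 bases before the start, chr3:120596167-120596196, plus strand: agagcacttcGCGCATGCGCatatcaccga
ATP5F1C, NRF1 motif 22 bases before the start, chr10:7788145-7788174, plus strand: gggagcttcgGCGCATGCGCgctgaggcct
The 3 genes with the NRF1 motif had unlike changes in sh718. SDHD changed by -3.16, ATP5F1C by -0.37 (adjusted p 0.00646) and NDUFB4 by 0.21 (adjusted p 0.103). The SDHD window also covers the annotated start of TIMM8B, which did not pass the test. A match is a run of letters and no measure of binding.

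Complex I, the NADH dehydrogenase, had 34 tested members. Of these 5 were higher and 9 lower in sh718, and 1 was higher and 3 lower in sh720. Of all tested genes, 9.56% were higher and 10.8% lower in sh718, and 3.43% and 3.42% in sh720. Among those with at least 1000 counts, 23.1% were higher and 19.6% lower in sh718. Of the 20 membrane-arm subunits 5 rose and 6 fell in sh718. Of the 7 subunits of the NADH-oxidising module 2 fell, and of the 7 of the quinone-binding module 1 fell. The share in the quinone-binding module, 14.3%, lies near the 10.8% of all tested genes.

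NDUFB3 (ENSG00000119013, chromosome 2, 201071433 to 201085750, plus strand), a small membrane-arm subunit, had the largest change of these. It had 20, 22.2 and 21.2 CPM in sh718, 44.2, 41.6 and 40.7 CPM in sh720 and 48.4, 58.6 and 55.5 CPM in control. The sh718 values lay below all others, and the sh720 values lay below those of control. The change was -1.35 in sh718 (SE 0.21, adjusted p 4.42e-07) and -0.36 in sh720, where it missed the threshold (adjusted p 0.236). Of its annotated 75-base windows, 10.9% also occur in another gene, mostly FAM126B, which had 35 counts.

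NDUFS3, a core subunit of the quinone module, had 64.8, 78.6 and 76.3 CPM in sh718, 116, 92.5 and 109 CPM in sh720 and 137, 114 and 94.4 CPM in control, and fell in sh718 by 0.63 (adjusted p 0.00049). NDUFV1, which holds the NADH site, had 106, 102 and 85.8 CPM in sh718, 147, 130.0 and 137 CPM in sh720 and 136, 139 and 135 CPM in control. It fell in sh718 by 0.48 (adjusted p 0.00255) and its sh720 change was 0.01. For both genes the sh718 libraries were the lowest of all.

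NDUFB11 rose in sh718. This membrane-arm subunit had 283, 324 and 288 CPM in sh718, 228, 258 and 229 CPM in sh720 and 231, 209 and 204 CPM in control, a change of 0.48 in sh718 (SE 0.09, adjusted p 6.53e-05). The overlapping gene RBM10, which shares 543 of the 75-base windows of NDUFB11, rose in both lines, by 0.55 in sh718 and 0.51 in sh720, and no source used here gives the strand setting of the counting. NDUFS5, the member of complex I with the highest level per kilobase in sh718, rose by 0.26 in sh718 with 623, 624 and 613 CPM, against 531, 536 and 488 CPM in control. Its call ended without control library 3 (adjusted p 0.0649).

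NDUFC2, which rose in sh718, and NDUFA8 and NDUFB9, which fell, are described further on with the members called in both lines. NDUFA3 and NDUFA11 rose in sh718 as well, by 0.36 and 0.25. NDUFB5, NDUFB6, NDUFB7 and NDUFS6 fell in sh718, with changes of -0.46, -0.30, -0.30 and -0.30. Of NDUFA3, NDUFA11 and these 4, DESeq2 called NDUFB5 alone. The 20 complex I members not called in sh718 had changes from -0.18 to 0.27. In sh720 NDUFB2, a membrane-arm subunit, fell by 0.34 (adjusted p 0.0238), with 271, 259 and 209.8 CPM in sh718, 209.6, 195 and 180.3 CPM in sh720 and 233, 236 and 269 CPM in control. All its sh720 libraries lay below all control libraries, but DESeq2 did not call it (adjusted p 0.133), and the call ended without sh720 library 2 or 3 or control library 3. Of its 75-base windows 27.3% also occur in other genes, mostly BRAF, which overlaps it on the other strand.

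Complex III passes electrons from ubiquinol to cytochrome c. Of its 9 tested members 2 were higher and 2 lower in sh718, and 2 were lower in sh720. Each of these is 22.2% of them, beside 9.56%, 10.8% and 3.42% of all tested genes. Among all tested genes with at least 1000 counts, these shares were 23.1%, 19.6% and 11.1%, so both sh718 shares lie near those of such genes. UQCRC1 (ENSG00000010256, chromosome 3, 48599002 to 48610976, minus strand, a core protein) had 227, 268 and 232 CPM in sh718, 252, 255 and 231 CPM in sh720 and 377, 346 and 373 CPM in control. The libraries of both hairpin lines overlapped each other and all lay below control. It fell by 0.59 in sh718 (SE 0.09, adjusted p 3.51e-07), and its change in sh720 was -0.57 (SE 0.09, adjusted p 1.29e-06). The difference between the hairpin lines was -0.01 (95% interval -0.20 to 0.17). No 75-base window of UQCRC1 occurs in another annotated transcript, and the calls held under every alternative. The other core protein gene, UQCRC2, had changes of 0.03 in sh718 and -0.15 in sh720 and was not called. UQCRB, which binds ubiquinone, had -0.15 and -0.14, and UQCRFS1, the Rieske iron-sulfur protein, -0.17 and -0.18, and neither was called.

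Several genes near UQCRC1 on chromosome 3 fell as well. Of its 20 nearest tested non-members 8 fell in sh718 and 6 in sh720, where 10.8% and 3.42% of all tested genes fell, and their medians were -0.35 and -0.41. They include NDUFAF3, a complex I assembly factor, with -0.47 in sh718 and -0.48 in sh720. PRKAR2A, a regulatory subunit of protein kinase A, had -0.51 in sh718 and -0.51 in sh720.

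Among the small subunits of complex III, UQCRH and UQCRQ rose in sh718. In sh720 edgeR called 0 of the 5, 1 had an unadjusted p under 0.05 and DESeq2 called 0. UQCRH, the acidic hinge protein that helps dock cytochrome c, had 771, 843 and 839 CPM in sh718, 702, 680.0 and 665 CPM in sh720 and 693, 654 and 665 CPM in control. It rose by 0.29 in sh718 (adjusted p 0.000875), and its sh720 change was 0.02. UQCRQ rose by 0.28 (adjusted p 0.0247), a call that ended under DESeq2 (adjusted p 0.114), with no count filter and without sh718 library 1 or control library 3 (adjusted p 0.0533 to 0.195 over these). UQCR11 had 0.29 in sh718 and missed the threshold (adjusted p 0.056). The intronless copy of UQCRH, UQCRHL (ENSG00000233954, chromosome 1, 15807169 to 15809348, minus strand) went the other way, with 11.8, 19.1 and 7.42 CPM in sh718, 5.14, 14.6 and 15.5 CPM in sh720 and 39.4, 37.2 and 36.1 CPM in control. All hairpin libraries of UQCRHL lay below control, and the changes were -1.53 in sh718 (adjusted p 2.37e-05) and -1.66 in sh720 (adjusted p 1.32e-05). The pair shares 104 of the 75-base windows, so reads may have been placed on either, and the UQCRHL values rest on 5 to 39 counts a library.

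Complex IV, cytochrome c oxidase, is given here with NDUFA4, which was first counted to complex I and is now placed in complex IV. Against control, sh718 had 3 of 12 tested members higher and 1 lower, and sh720 had 2 lower. These are 25%, 8.33% and 16.7% of them, beside 9.56%, 10.8% and 3.42% of all tested genes. Among all tested genes with at least 1000 counts, these shares were 23.1%, 19.6% and 11.1%. The share that was lower in sh718 lies near that of all tested genes, and the share that was higher lies near that of genes with at least 1000 counts. COX5B, which binds zinc on the matrix side, was the gene that fell in sh718. It had 289, 311 and 299 CPM in sh718, 416, 385 and 415 CPM in sh720 and 441, 429 and 415 CPM in control, a change of -0.51 in sh718 (SE 0.08, adjusted p 1.08e-06). Its 20 nearest tested non-members, 10 on each side, had a median of -0.44 in sh718, with 5 lower and 1 higher.

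COX7A2 (ENSG00000112695, chromosome 6, 75237675 to 75250323, minus strand), the form of subunit 7a made in most tissues, was the only member called in opposite directions, which 0.523% of all tested genes were as higher in sh718 and lower in sh720. It had 302, 319 and 305 CPM in sh718, 195, 199 and 189 CPM in sh720 and 249, 228 and 237 CPM in control, and the 3 ranges did not overlap. The change was 0.38 in sh718 (SE 0.09, adjusted p 0.00108), and in sh720 it was -0.29 (SE 0.10, adjusted p 0.046). The call in sh720 ended under DESeq2 (adjusted p 0.171), with no count filter and without any 1 library of sh720 or control, at adjusted p-values of 0.0613 to 0.171. The difference between the hairpin lines, 0.67 (SE 0.09, adjusted p 2.24e-08), held under every alternative.

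COX7C, a short membrane subunit, had the highest level per kilobase of all members, 1991 CPM per kilobase in sh718, 1538 in sh720 and 1742 in control. It rose by 0.19 in sh718 (adjusted p 0.0185), but with sh718 library 2 or either of control libraries 1 and 3 left out the call ended (adjusted p 0.0645 to 0.0919). COX6A1, the widely made form of subunit 6a, rose by 0.32 in sh718, and that call ended without sh718 library 3 (adjusted p 0.0621). COX4I1, the common form of the subunit 4 that regulates the enzyme, fell in sh720 by 0.26 (adjusted p 0.00658), with 949.8, 999 and 889 CPM in sh718, 813, 756 and 735 CPM in sh720 and 875, 998 and 894 CPM in control. That call ended without sh720 library 3 or control library 2 (adjusted p 0.0579 and 0.111). COX5A, COX6B1, COX6C, COX7A2L, COX7B, COX8A and NDUFA4 were called in neither line, with changes between -0.16 and 0.14 in sh718 and between -0.23 and 0.20 in sh720.

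Complex V, the ATP synthase, had 18 tested members, with 2 higher and 4 lower in sh718 and 1 lower in sh720. These are 11.1%, 22.2% and 5.56% of them, beside 9.56%, 10.8% and 3.42% of all tested genes. Among all tested genes with at least 1000 counts, these shares were 23.1%, 19.6% and 11.1%. The share that was higher in sh718 lies near that of all tested genes, and the share that was lower lies near that of genes with at least 1000 counts. ATP5MF, the f subunit of the membrane part, had 297, 351 and 311 CPM in sh718, 238, 206 and 204 CPM in sh720 and 231, 232 and 216 CPM in control. It rose by 0.50 in sh718 (SE 0.09, adjusted p 2.65e-05), with all sh718 libraries above all others. ATP5F1E, the epsilon subunit of the F1 part, had 1004, 923 and 941 CPM in sh718, 859, 786 and 760.1 CPM in sh720 and 777, 758 and 688 CPM in control, and rose by 0.37 in sh718 (SE 0.07, adjusted p 2.16e-05).

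Subunits of the F1 head and of the stalk that holds it were among those that fell. ATP5PD, the d subunit of the stalk, had 161, 173 and 158 CPM in sh718, 257, 195 and 215 CPM in sh720 and 247, 260.5 and 233 CPM in control. It fell by 0.58 in sh718 (SE 0.10, adjusted p 1.2e-05), and its sh720 change was -0.15. ATP5PB, the b subunit of the stalk, fell by 0.33 in sh718, and ATP5F1C, the gamma shaft of F1, by 0.37. ATP5F1B, the catalytic beta subunit and the member of complex V with the highest level per kilobase in control, fell by 0.19 in sh718 (adjusted p 0.0246). The ATP5F1B and ATP5F1C calls each ended without sh718 library 1 or control library 2, and that of ATP5F1B also without sh718 library 3 or control library 1 and under DESeq2.

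The rotor ring is made of a single protein that ATP5MC1, ATP5MC2 and ATP5MC3 all encode. In sh718 edgeR called 0 of these 3, 0 had an unadjusted p under 0.05 and DESeq2 called 0. In sh720 ATP5MC3 fell by 0.38 (SE 0.07, adjusted p 0.000141), with 497, 521 and 534 CPM in sh718, 466, 413 and 434 CPM in sh720 and 588, 585 and 542 CPM in control. All its sh720 libraries lay below all others. ATP5MC1 had -0.16 in sh720 and ATP5MC2 0.06, and neither was called. ATP5IF1, which inhibits the enzyme when it runs backwards, was called in neither line, with 0.18 in sh718 and 0.05 in sh720. The complex V members not called had changes from -0.21 to 0.18 in sh718 and from -0.32 to 0.19 in sh720.

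Few members were called with both hairpins. NDUFA8, NDUFB9, UQCRC1 and UQCRHL fell in both lines, as did 1.41% of all tested genes, and NDUFC2 rose in both, as did 0.858%. Both lines were set against the same control libraries, so the 2 comparisons are not independent. NDUFB9, a membrane-arm subunit and the complex I member with the highest level per kilobase in control, had 826, 855 and 817 CPM in sh718, 898, 895 and 846 CPM in sh720 and 1057, 1103 and 1019.5 CPM in control. Its changes were -0.35 in sh718 (adjusted p 2.65e-05) and -0.27 in sh720 (adjusted p 0.00282), and both calls held under every alternative.

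NDUFA8, an intermembrane-space subunit of complex I, had 126, 115 and 122 CPM in sh718, 125, 116 and 98.9 CPM in sh720 and 151, 153 and 149 CPM in control. Its changes were -0.32 in sh718 and -0.41 in sh720, and DESeq2 called neither (adjusted p 0.186 and 0.109). The sh718 call also ended without any 1 library of sh718 or control, and the sh720 call without sh720 library 3 or control library 2. NDUFC2, a membrane-arm subunit, had 136, 137 and 141 CPM in sh718, 139.7, 162 and 148 CPM in sh720 and 93.5, 119.5 and 109 CPM in control, with changes of 0.36 in sh718 and 0.48 in sh720. All hairpin libraries of NDUFC2 lay above control. Its sh718 call ended under DESeq2 (adjusted p 0.127) and without sh718 library 2 or 3 or control library 1 or 3, and its sh720 call without sh720 library 2 or control library 1.

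**Figure D4:**
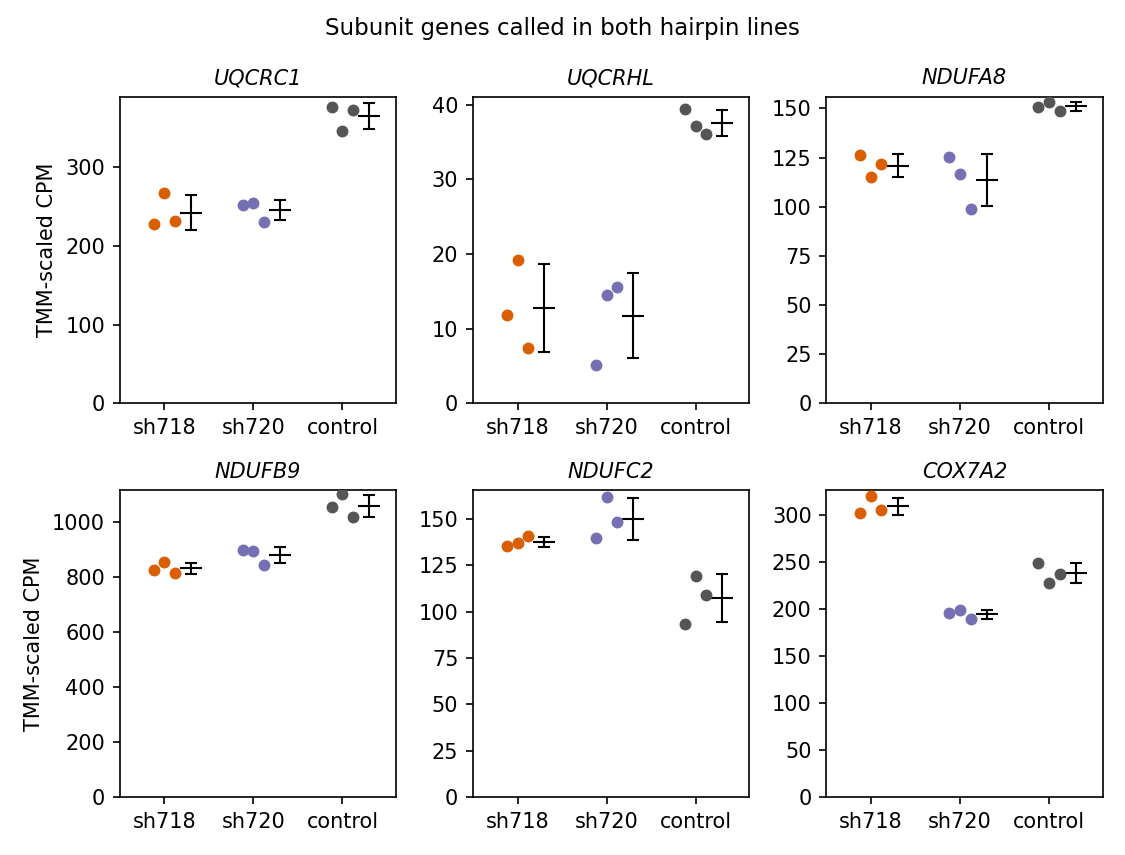
TMM-scaled CPM in each library (points), with mean and SD (bars), of the 6 members called with both hairpins, each panel with its own axis from 0. For UQCRC1, UQCRHL, NDUFA8 and NDUFB9 both hairpin lines lie below control, for NDUFC2 both lie above, and for COX7A2 sh718 lies above and sh720 below.

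Set directly against each other, the hairpin lines differed in 35 of 77 members, or 45.5%, against 25.3% of all tested genes. In sh718 22 were higher than in sh720, where 12.3% of all tested genes were higher, and 13 were lower, where 13% were. DESeq2 found 16 higher and 9 lower, beside 6.61% and 6.92% of all tested genes. The libraries of the lines did not overlap, with sh718 above, for 26 members and, with sh718 below, for 17, against 18.2% and 18.8% of all tested genes. Among genes with at least 1000 counts, 51.8% of members and 48.8% of all genes differed. All 4 small complex III subunits called, UQCR10, UQCR11, UQCRH and UQCRQ, were higher in sh718, as were 5 of the 7 called members of complex IV. The calls of UQCR10 and UQCR11 both ended under DESeq2 (adjusted p 0.0545 and 0.111) and without sh718 library 1 or sh720 library 3, and that of UQCR11 also with no count filter. UQCRQ, a small subunit of the membrane part, had 295, 267 and 271 CPM in sh718 and 194, 225 and 196 CPM in sh720, a difference of 0.44 (adjusted p 0.000288). ATP5MF differed by 0.57, the complex I subunits NDUFA3 and NDUFA12 by 0.57 and 0.41, and COX7C by 0.37. Lower in sh718 beside the complex II genes were NDUFB3 by 0.99, NDUFV1 by 0.50 and COX5B by 0.43, with adjusted p-values of 0.000294, 0.00138 and 2.52e-05.

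The levels of the subunit transcripts kept their order between complexes. Per kilobase of transcript, the median of the complex IV members was highest, at 620 in sh718, 572 in sh720 and 582 in control, in CPM per kilobase. Complex V followed with 411 in sh718, 418 in sh720 and 421 in control. Complex III had 229 in sh718, 184 in sh720 and 188 in control, and complex I had 152 in sh718, 166 in sh720 and 174 in control. The 4 complex II members had the lowest median, 105 in sh718, 137 in sh720 and 155 in control. Within a complex, levels spread widely, in control from 12.5 for NDUFS7, an iron-sulfur subunit, to 1413 for NDUFB9. SDHD was the lowest of complex II in sh718, while in sh720 and control that was SDHA. The median transcript length stands for all isoforms of a gene here, and it can misplace a gene with a long minor isoform.

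**Figure D5:**
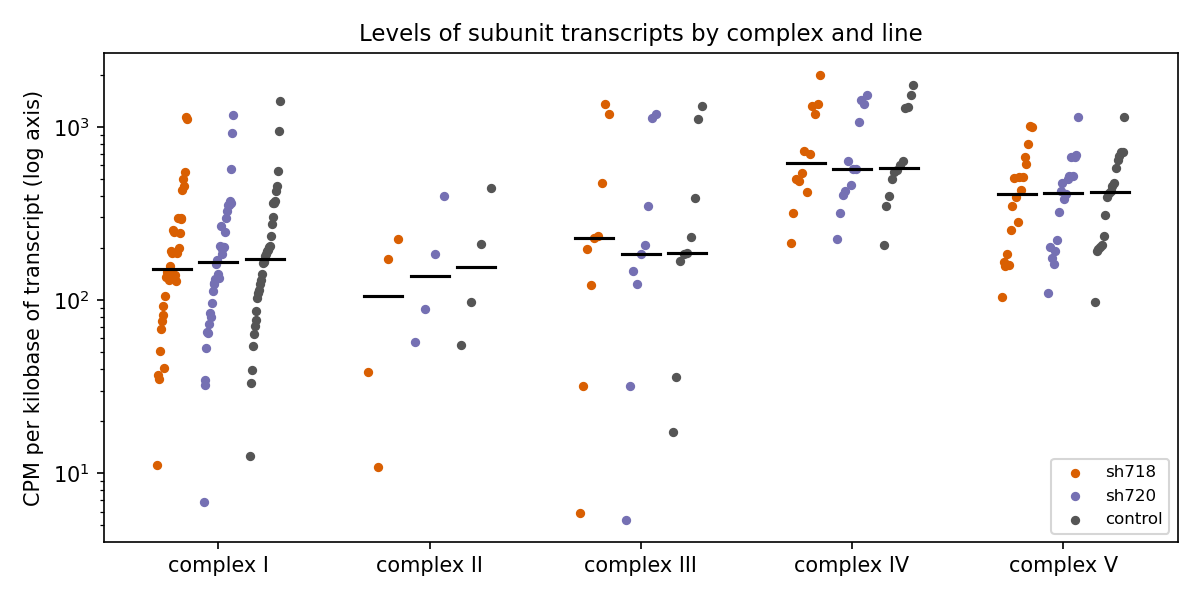
Level of each tested member in CPM per kilobase of transcript (log axis) by complex, with points for genes and bars for medians, for sh718 (orange), sh720 (violet) and control (grey). Complex IV has the highest medians, from 572 to 620, and complex II the lowest, with SDHD at 10.9 in sh718.

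Partners of the nuclear subunits were read from lists of genes. Among the 13 subunits that mitochondrial DNA encodes, 1 was higher and 8 lower in sh718, and 6 were lower in sh720. All 13 had at least 1000 counts, and among all tested genes with that many, 23.1% were higher and 19.6% lower in sh718 and 11.1% lower in sh720. Their summed level was 73950 to 77178 CPM in sh718, 69596 to 80392 CPM in sh720 and 87415 to 91264 CPM in control, and both hairpin lines lay below control in every library. MT-ND1, a core membrane subunit of complex I, fell by 0.83 in sh718 and 0.64 in sh720 (adjusted p 6.19e-18 and 4.63e-13). MT-ND4 fell by 0.58 in sh718 and had -0.14 in sh720, and MT-CO1, the catalytic core of complex IV, fell by 0.36 in sh718 and 0.51 in sh720. MT-ND5 was the 1 that rose, by 0.28 in sh718, although its sh718 library 2 lay below every control library, with 5005, 2915 and 4842 CPM in sh718 and 3112, 3356 and 4016 CPM in control.

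Of 4 tested subunits or carriers whose symbols lie outside the naming rule, 2 fell in sh718, as did 10.8% of all tested genes. In sh720 edgeR called 0, 3 had an unadjusted p under 0.05 and DESeq2 called 0, with changes from -0.27 to -0.17. CYC1, the cytochrome c1 of complex III, fell by 0.41 in sh718 (adjusted p 3.2e-06), and CYCS, cytochrome c itself, by 0.40 (adjusted p 2.43e-05).

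Of 53 tested assembly factors, proteins that build the complexes and are not part of them, 1 was higher and 10 were lower in sh718, and 1 was lower in sh720. Of all tested genes, 9.56% were higher and 10.8% lower in sh718 and 3.42% lower in sh720. The median change was -0.19 in sh718 and 0.00 in sh720. CMC1, which acts early in complex IV assembly, had 40.1, 27.2 and 31.8 CPM in sh718, 111, 114 and 96 CPM in sh720 and 99.1, 78.9 and 91.6 CPM in control, a change of -1.46 in sh718 (adjusted p 2.66e-10). COX11, a copper chaperone of complex IV, fell by 0.78 in sh718. SDHAF3, a factor for the iron-sulfur subunit of complex II, had 14.1, 9.07 and 8.48 CPM in sh718 and 30.4, 22.6 and 21.3 CPM in control, a change of -1.23. NDUFAF5, which modifies a complex I subunit, rose by 0.59 in sh718 (adjusted p 0.0315).

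Regulators of mitochondrial gene expression and biogenesis gave 5 lower of 16 tested in sh718, where 10.8% of all tested genes were lower, with a median of -0.39. In sh720 the median was -0.14, edgeR called 0, 2 had an unadjusted p under 0.05 and DESeq2 called 0. TFB2M, which starts transcription of mitochondrial DNA, had 7.07, 8.06 and 7.42 CPM in sh718, 31.8, 42.6 and 35.9 CPM in sh720 and 39.4, 40.6 and 48.1 CPM in control, a change of -2.49 in sh718 (adjusted p 1.56e-10). MTERF3, which acts on mitochondrial transcription and ribosomes, fell by 2.16 in sh718 (adjusted p 3.27e-10), and POLG2, a subunit of the mitochondrial DNA polymerase, by 1.04 (adjusted p 0.00952). TFAM, which packages mitochondrial DNA, was among the 5, with -0.45.

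Of 16 tested enzymes of the citric acid cycle and pyruvate entry, SDH genes aside, 1 was higher and 3 were lower in sh718, and 1 was lower in sh720, beside 9.56%, 10.8% and 3.42% of all tested genes. The single calls, higher in sh718 and lower in sh720, lie near those shares. FH, fumarase, which takes up the product of complex II, had 211, 209.6 and 201 CPM in sh718, 371, 361 and 322 CPM in sh720 and 341, 373 and 328 CPM in control. It fell by 0.74 in sh718 (SE 0.09, adjusted p 1.17e-09) and its sh720 change was 0.02. DLAT and PDHB, both of the pyruvate dehydrogenase complex, fell by 1.43 and 0.85 in sh718, and PDHB fell by 0.45 in sh720. IDH3G, a regulatory subunit of isocitrate dehydrogenase, rose by 0.41 in sh718 (adjusted p 0.0256).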

How the data were processed

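The authors deposited raw counts per Ensembl gene for 9 libraries, 3 per line, with no normalization. The genome build was GRCh38 and reads were trimmed with Trim Galore, per the submitters' processing notes. Per the labels' protocols, single reads of 75 bp were made, 3000000 per sample. No source used here gives the aligner, counter, strand setting or annotation, so overlapping genes and near-identical copies are uncertain. It is not stated that replicate libraries came from separate cultures, so p-values measure only the spread between libraries, which may be technical.

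The test was edgeR's quasi-likelihood test (version 4.0.16, R 4.3.3, TMM scaling, all 9 libraries in 1 model of 3 lines, Benjamini-Hochberg adjustment per comparison). The 9556 genes with at least 60 counts in all, an average of 20 per line, were tested, and the code was tested on simulated data. TMM-scaled CPM were computed from the deposited counts and are given per library. The alternatives were DESeq2 1.42.0, RLE size factors, other count filters, fits of 2 lines, library number as a block and the omission of each library. Positions, transcript lengths and shared 75-base windows came from GENCODE 29, and promoters from RefSeq. Named were members called with both hairpins, at most 6 higher and 6 lower per comparison ranked by the interval bound nearest to 0, the 2 highest per complex, isoform pairs, and at most 3 per list, direction and comparison. TFAM, RBM10, the neighbours and members named outside this rule, such as NDUFS3, were chosen after their values were seen. The members and lists were chosen with earlier results of these data known.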

Additional observations from a re-analysis of the deposited data

Results flagged for a closer look

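COX7A2 differed between the hairpin lines, with changes of opposite sign. Its log2 change was 0.38 in sh718 and -0.29 in sh720, and the test of the difference itself gave 0.67 (SE 0.09, edgeR adjusted p 2.24e-08). All 3 sh718 libraries lay above all 3 control libraries, and all 3 sh720 libraries lay below them. The sh720 call (adjusted p 0.046) ended in 8 of 12 alternatives, DESeq2 (adjusted p 0.171) and the omission of any 1 sh720 or control library among them, while the sh718 call and the difference between the lines held in all 12. No 75-base window of COX7A2 occurs in another annotated transcript.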

How the results depend on the processing

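Of the members called, 18 of 31 in sh718, 4 of 9 in sh720 and 22 of 35 between the hairpin lines kept their call and direction under every alternative. No call changed direction. Among changes of named members that were not called, the sign differed from that of the main fit in 21 combinations of gene and alternative. DESeq2 called 22 members in sh718, 6 in sh720, 5 of them lower against 8 in edgeR, and 25 between the lines. With no count filter the counts were 25, 8 and 32. Leaving out 1 library gave 22 to 26 calls in sh718 (6 to 10 higher, 15 to 17 lower), 5 to 8 in sh720 (0 to 1 higher, 4 to 7 lower) and 29 to 33 between the lines (16 to 22 higher, 9 to 13 lower). The lowest sh720 count came without its library 3, and the 1 higher call ended without sh720 library 2 or control library 1. Library numbers were shared between lines, but same-numbered libraries correlated by only -0.012 to 0.023 in their deviations from the line means, so they were not taken as pairs. With the library number as a replicate block, 31, 10 and 38 members were called. At 883663 to 1108960 counts a library, depth limits members with few counts, and NDUFS7, with -0.86 in sh720, did not pass the test.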

Other observations

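Calls in sh718 were also counted by transcript length. Over the 77 tested members, the Spearman correlation of the change with transcript length was -0.30 in sh718 and -0.04 in sh720, against 0.00 over 9544 tested genes in each. The Pearson correlation with log length had the other order, -0.16 in sh718 and -0.22 in sh720, so no difference between the lines can be read from these. Of the 23 members of up to 600 bases 7 rose and 4 fell in sh718, and of the 38 members above that and up to 1000 bases 2 rose and 10 fell. Among all tested genes of these lengths, 78 of 528 rose and 64 fell, and 251 of 2083 rose and 251 fell. The points share their libraries, and transcript lengths are medians over annotated isoforms.

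Of the 84 members, 12 had at least 5 of their 20 neighbours lower in sh718, where 10.8% of all tested genes were lower, and the median of the neighbour medians over all members was 0.05. Of these 12 members 5 fell themselves, SDHD, UQCRC1, COX5B, NDUFS3 and NDUFS6, and NDUFB1, NDUFS4, NDUFS8, COX6C, COX8A and ATP5MG were not called, while COX7C rose. Members near each other can share neighbours. NDUFS6, on the short arm of chromosome 5 like SDHA, fell by 0.30, and its 20 neighbours had a median of -0.63, 9 of them lower. NDUFS4 on the same chromosome had 0.15 and was not called, while its neighbours had a median of -0.44, 5 of them lower. NDUFS3 fell by 0.63, and its neighbours had a median of -0.28, 5 of them lower. NDUFB1 had -0.10, and its neighbours had a median of -0.48, 6 of them lower.

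Of the 84 members, 30 share no 75-base window with another annotated transcript, 25 share over 10% of their windows and 0 over 50%.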
